A study of Rattus norvegicus with 11 samples.

Results

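The genes described here are 9 factors of helper and regulatory T cells: Tbx21, Gata3, Foxp3, Il2ra, Ctla4, Icos, Ifng, Il10 and Il17a. They were chosen by name, and each stood on 1 row of a table of 32623 genes measured in RNA of peripheral leukocytes. The samples came from male Wistar rats that were 7 weeks old when supplied. In 4 rats, collagen-induced arthritis (CIA) was started by injecting type II collagen in incomplete Freund's adjuvant (IFA-CII), with a boost on day 7. Each of these rats gave a sample at Nampt++ status, on about day 8, and another at Nampt+ status, on about day 14. The study set the status by PCR of Nampt, an enzyme of NAD synthesis, so status and day of disease cannot be told apart. The other 3 samples came from untreated normal rats. Red blood cells were lysed, and no T cell fraction was sorted.

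A mean of at least 1 FPKM (fragments per kilobase of gene, scaled to the library total) over the 11 samples was reached by 8 of the 9 genes. Il17a alone was below it, at 0.311 FPKM. By edgeR's quasi-likelihood test none of the 8 genes was called changed in any of the 3 comparisons. Of all genes tested, 0.497% to 0.686% were called. DESeq2, however, called Il10 in one comparison and Ifng in another. In no comparison did the samples of the groups separate without overlap, which 0.41% to 1.1% of all genes tested did. Over all samples the highest value was 3.43-fold the lowest for Foxp3 and 11.96-fold for Il10, and the spread was wider for Ifng and Il17a, which were listed at 0 in some samples. Within a single group it reached 6.44-fold for Ctla4 at Nampt+ status and 22.1-fold for Ifng in normal rats.

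CD4 T cells take on different programmes after activation. T-bet, the product of Tbx21, directs the Th1 programme and its cytokine interferon gamma, encoded by Ifng. GATA3 directs the Th2 programme, FOXP3 maintains regulatory T cells, and interleukin 17A is the signature cytokine of Th17 cells. Il2ra encodes CD25, the alpha chain of the interleukin 2 receptor. CTLA4 restrains T cell activation by competing with CD28 for its ligands, ICOS is a costimulatory receptor, and interleukin 10 is an anti-inflammatory cytokine. Most of these genes are not private to CD4 T cells: NK cells use T-bet and make interferon gamma, and monocytes and macrophages make interleukin 10.

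Several of the genes lie close together. In the coordinates of the deposited table, whose genome build is not named in the sources used here, Ctla4 stood on chromosome 9 at 67699379 to 67706065 and Icos at 67763897 to 67785580 on the same strand, with 57831 bases between them. Cd28, the third receptor of this family, ended 127507 bases before Ctla4. Il17a, also on chromosome 9, at 26841299 to 26844786, lay 40921 bases from Il17f. Ifng, on chromosome 7 at 61337381 to 61341419, lay 96878 bases from Il22. Gata3 (72429618 to 72450681) and Il2ra (70499083 to 70548071) were both on chromosome 17. Tbx21 was on chromosome 10 at 85032799 to 85049331, Foxp3 on chromosome X at 15753175 to 15768522, and Il10 on chromosome 13 at 47739526 to 47743392.

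RefSeq promoter windows of the GRCr8 assembly were found for 8 of the 9 genes, all but Il10. Shown here are the 120 bases before the annotated start of 5 of them: Foxp3 and Il2ra, whose RNA levels followed each other across samples, Tbx21 and Ifng, the Th1 pair, and Il17a, the gene with the lowest level. Each is written 5′ to 3′ on the strand of its gene, with matches to the TATA box (TATAAA) and GATA motifs (AGATAA or AGATAG, as well as TGATAA or TGATAG) in capitals, both strands searched. The regions are chrX:17595701-17595820 (minus strand) for Foxp3, chr17:71808476-71808595 (minus) for Il2ra, chr10:82595254-82595373 (minus) for Tbx21, chr7:55789060-55789179 (plus) for Ifng and chr9:30640724-30640843 (plus) for Il17a.
Foxp3: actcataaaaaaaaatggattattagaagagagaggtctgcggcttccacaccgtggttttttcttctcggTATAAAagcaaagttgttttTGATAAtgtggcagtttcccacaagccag
Il2ra: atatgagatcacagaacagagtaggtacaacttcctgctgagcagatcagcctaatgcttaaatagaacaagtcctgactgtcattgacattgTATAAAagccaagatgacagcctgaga
Tbx21: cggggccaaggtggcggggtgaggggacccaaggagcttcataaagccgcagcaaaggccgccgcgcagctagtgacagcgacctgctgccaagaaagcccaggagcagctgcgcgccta
Ifng: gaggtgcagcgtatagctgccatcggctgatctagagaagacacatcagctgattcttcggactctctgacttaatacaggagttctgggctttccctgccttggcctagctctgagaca
Il17a: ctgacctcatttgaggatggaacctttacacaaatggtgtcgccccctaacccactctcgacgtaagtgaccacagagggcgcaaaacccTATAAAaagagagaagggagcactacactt

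No capitals stand in the Tbx21 and Ifng stretches, which held neither motif. A TATA box match began 30 bases before the start of Il17a, 27 before that of Il2ra and 49 before that of Foxp3. Over the whole 250 bases before the start, 6 of the 8 genes held TATAAA on either strand, against 12.9% of 33469 promoter windows. The matches in Ctla4, Ifng and Icos lay farther out, beginning 98, 139 and 216 bases before the start. That of Icos was on the opposite strand. The genes without a match were Tbx21 and Gata3, whose 250 bases were 64.0% and 68.4% G or C, compared with a median of 51.2% over all windows. A GATA match was found in 2 of the 8, Foxp3 and Ifng, and in 27.0% of all windows. No match was found in these windows to the T-box (GGTGTGA, 3.22% of all windows), forkhead (GTAAACA, 3.21%), STAT (TTCNNNGAA, 7.67%), AP-1 (TGANTCA, 6.34%) or NFAT (GGAAAA, 21.6%) motifs. These are matches of letters and not evidence of binding.

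Ranked by mean FPKM over all samples, Ctla4 stood highest at 27.6, followed by Icos at 17.8, Tbx21 at 11.6, Foxp3 at 9.31 and Il10 at 9.09. Il2ra (5.61 FPKM), Gata3 (5.46 FPKM), Ifng (3.36 FPKM) and Il17a came after them. The ranges of all neighbours in this order overlapped. Ctla4 was above Icos in 10 of 11 samples and Icos above Tbx21 in 10 of 11, whereas Tbx21 exceeded Foxp3 in only 6 of 11 and Il2ra exceeded Gata3 in 5 of 11. The plot of FPKM by group shows every sample of the 9 genes.

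**Figure D1:**
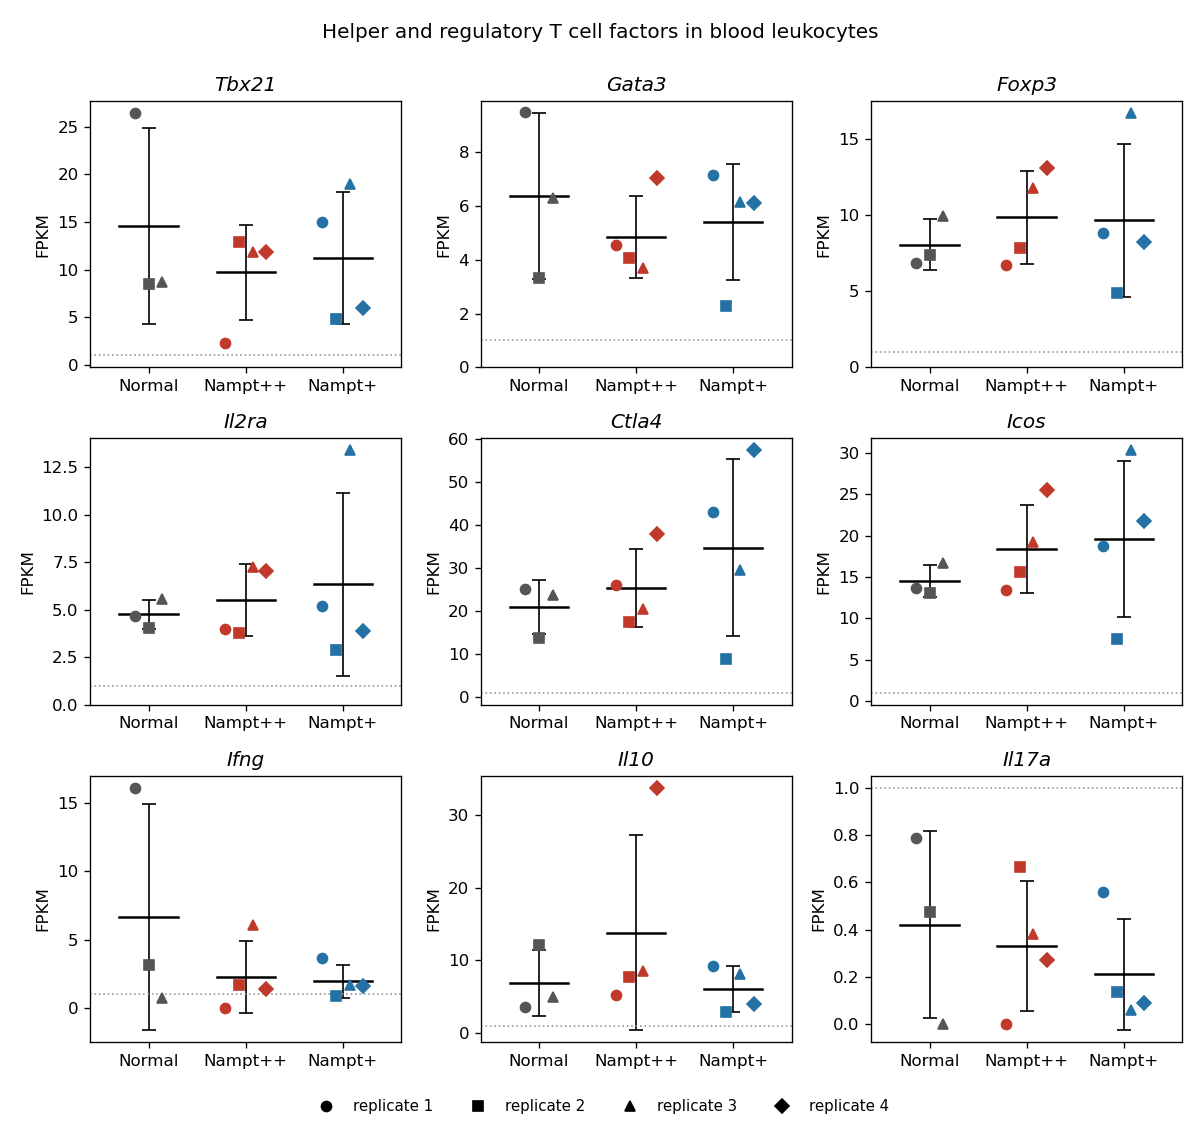
FPKM of the 9 genes in each sample (vertical axis, one panel per gene), grouped as normal rats and CIA rats at Nampt++ and Nampt+ status. Symbols mark the replicate number, and the same number in the CIA groups was read as the same rat. Horizontal bars mark the group mean, error bars the SD and the dotted line 1 FPKM. The groups overlap in every panel, and Il17a stays under the dotted line in all 11 samples.

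Total counts ran from 65340027 to 85819418 per sample, of which haemoglobin genes took 6.84% to 42.8%. Markers of T cells were present throughout, and the mean FPKM of Cd3d, Cd3e and Cd3g, parts of the T cell receptor complex, ranged from 74.4 to 266. An extraction note in the labels speaks of retina, but 6 retina markers summed to at most 1.93 FPKM in any sample, with Rbp3 and Rpe65 at 0 in all samples. Because blood leukocytes were measured in bulk, fewer cells of a type and less RNA per cell cannot be told apart for any value given here.

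Tbx21, the Th1 factor, showed no ordered difference between the groups. Its FPKM was 26.4, 8.54 and 8.70 in normal samples 1 to 3. It was 2.24, 12.8, 11.8 and 11.9 at Nampt++ status and 15.01, 4.82, 19.0 and 5.97 at Nampt+ status, for rats 1 to 4. The highest value was thus that of normal sample 1 and the lowest that of rat 1 at Nampt++ status, and the other values of each group lay between them. Within rats, the level rose 6.69-fold from Nampt++ to Nampt+ status in rat 1 and 1.61-fold in rat 3, and was 0.375-fold and 0.503-fold in rats 2 and 4. The log2 fold change between Nampt+ and Nampt++ samples was 0.16 ± 0.56 (SE, n = 4 and 4, edgeR's quasi-likelihood test, adjusted p = 0.9996).

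Ifng, the main Th1 cytokine, showed the largest fitted differences from normal rats and also the largest errors. Its FPKM was 16.1, 3.14 and 0.731 in the normal samples. At Nampt++ status it was listed at 0 in rat 1 and was 1.67, 6.10 and 1.39 in rats 2 to 4, and at Nampt+ status it was 3.62, 0.834, 1.67 and 1.63. Normal sample 1 was far above all other samples, while normal sample 3 was below every CIA sample but the one listed at 0. In that sample, 0 of 74940546 counts fell on Ifng, which allows up to 0.0400 CPM (counts scaled to a library of 1000000) by counting error alone. The other 10 samples held 0.393 to 8.56 CPM. Compared with normal rats, the log2 fold change was -1.56 ± 1.44 (SE, n = 4 and 3) at Nampt++ status and -1.84 ± 0.91 at Nampt+ status, with unadjusted p of 0.310 and 0.0794 by edgeR's quasi-likelihood test. DESeq2 called the second, at an unadjusted p of 0.0334 (adjusted p = 1.00), and edgeR called it once normal sample 3 was left out (log2 fold change -2.39, unadjusted p = 0.00728). On the log2(FPKM + 1) scale the difference between Nampt+ and normal samples was -0.84, and a two-sided exact permutation test gave p = 0.429. Without normal sample 1, the fitted difference from normal samples was 0.04 for Nampt++ samples and -0.26 for Nampt+ samples (unadjusted p = 0.758).

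The Th2 factor Gata3 stayed within a 4.17-fold range over the 11 samples. Its FPKM was 9.47, 3.32 and 6.30 in the normal samples, 4.55, 4.05, 3.68 and 7.04 at Nampt++ status, and 7.16, 2.27, 6.13 and 6.09 at Nampt+ status. The extremes were again normal sample 1 at the top and rat 2 at Nampt+ status at the bottom. Gata3 was 0.18 ± 0.22 higher on the log2 scale at Nampt+ than at Nampt++ status (SE, n = 4 and 4, edgeR's quasi-likelihood test, adjusted p = 0.9996), with 2 rats going up and 2 going down. Against normal rats the fitted log2 fold change was -0.42 ± 0.31 at Nampt++ status and -0.25 ± 0.32 at Nampt+ status.

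Foxp3, the regulatory T cell factor, overlapped between all groups and had its widest spread at Nampt+ status. It measured 6.86, 7.36 and 9.98 FPKM in the normal samples, 6.73, 7.87, 11.8 and 13.1 at Nampt++ status, and 8.86, 4.88, 16.7 and 8.22 at Nampt+ status. The highest and the lowest value were both Nampt+ samples, from rats 3 and 2. The group means were 8.07 ± 1.67 (SD, n = 3), 9.87 ± 3.05 (SD, n = 4) and 9.67 ± 5.02 (SD, n = 4) FPKM. The log2 fold change was 0.26 ± 0.25 for Nampt++ and 0.22 ± 0.26 for Nampt+ samples against normal rats, and -0.02 ± 0.27 between the CIA groups (SE).

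Il2ra, which is carried at high level by regulatory T cells and by activated T cells, followed Foxp3 from sample to sample. Its FPKM was 4.66, 4.03 and 5.58 in normal rats, 4.01, 3.77, 7.26 and 7.06 at Nampt++ status, and 5.17, 2.87, 13.4 and 3.88 at Nampt+ status. Rat 3 was highest at both statuses, and rat 2 was lowest at both. The difference between Nampt+ and Nampt++ samples was 0.19 ± 0.39 on the log2 scale (SE). The Pearson correlation between Il2ra and Foxp3 on the log2(FPKM + 1) scale was 0.942 over the 11 samples, and 0.895 without the 2 samples farthest from the median of Il2ra. Foxp3 was the third most similar of 11242 genes to Il2ra. The samples share rats, cell mixture and library preparation, so this describes their likeness only.

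Ctla4, the inhibitory receptor, had the highest mean of the 9 genes, and its own highest values were Nampt+ samples. It measured 25.3, 13.6 and 23.7 FPKM in normal rats, 26.1, 17.4, 20.4 and 37.9 at Nampt++ status, and 43.1, 8.91, 29.5 and 57.5 at Nampt+ status. At Nampt+ status 3 rats were above every normal sample and rat 2 was below all of them. Between statuses it was 1.65-fold, 1.45-fold and 1.52-fold higher at Nampt+ in rats 1, 3 and 4, and 0.513-fold in rat 2. The log2 fold change was 0.43 ± 0.35 between the CIA groups and 0.66 ± 0.39 for Nampt+ against normal samples (SE, unadjusted p = 0.127, edgeR's quasi-likelihood test). Without rat 2 at Nampt+ status, the latter became 0.89 with an unadjusted p of 0.0187 and was called, and without rat 4 at Nampt+ status it became 0.39 (unadjusted p = 0.326). Rat 2 at Nampt+ status had the lowest CD3 level, 74.4 FPKM. Its 14 T cell markers, all of 14 listed being found, summed to 459 FPKM, where the other Nampt+ samples reached up to 1470, the Nampt++ samples 812 to 1242 and the normal samples 650 to 1593. It also held the largest share of haemoglobin counts, 42.8%. The part of these in the result was not tested.

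Icos resembled Ctla4 in part, with a lower mean. Their Pearson correlation on the log2(FPKM + 1) scale was 0.751 over the 11 samples, and 0.560 without the 2 samples farthest from the median of Ctla4. From Nampt++ to Nampt+ status in rat 4, Ctla4 rose while Icos was 0.849-fold. The FPKM of Icos was 13.7, 13.1 and 16.7 in normal rats, 13.4, 15.5, 19.2 and 25.6 at Nampt++ status, and 18.8, 7.54, 30.3 and 21.7 at Nampt+ status. At Nampt+ status, rats 1, 3 and 4 again stood above and rat 2 below all normal samples. The log2 fold changes were 0.30 ± 0.22 for Nampt++ and 0.35 ± 0.24 for Nampt+ against normal samples, and 0.07 ± 0.24 between the CIA groups (SE). Cd28, their activating relative on the same stretch of chromosome 9, had a mean of 22.6 FPKM. Its fitted log2 fold change was 0.45 ± 0.33 between Nampt+ and Nampt++ samples and 0.27 ± 0.47 between Nampt+ and normal samples.

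Il10 overlapped between all groups, and its highest value stood apart in a single sample. It measured 3.53, 12.1 and 4.96 FPKM in normal rats, 5.20, 7.64, 8.60 and 33.8 at Nampt++ status, and 9.24, 2.82, 8.11 and 3.97 at Nampt+ status. Rat 4 at Nampt++ status was far above all other samples, and the median of its group was 8.12 FPKM compared with a mean of 13.8 ± 13.4 (SD, n = 4). From Nampt++ to Nampt+ status Il10 was 0.118-fold in rat 4, 0.370-fold in rat 2 and 0.943-fold in rat 3, and 1.78-fold in rat 1. The log2 fold change between Nampt+ and Nampt++ samples was -1.10 ± 0.55 (SE, n = 4 and 4), with an unadjusted p of 0.0782 and an adjusted p of 0.9996 by edgeR's quasi-likelihood test. DESeq2 gave the same fold change with an unadjusted p of 0.0439 and called it. EdgeR called it when rat 1 at Nampt++ status was left out (-1.36, unadjusted p = 0.0272). Without rat 4 at Nampt++ status the change was -0.34 (unadjusted p = 0.406). Against normal rats, the Nampt++ samples were 0.74 ± 0.75 higher (SE), and 1.78 higher without normal sample 2 (unadjusted p = 0.0481, called), but -0.04 without rat 4 at Nampt++ status. The sample with the highest Il10 also had the highest Cd14, a monocyte marker, at 253 FPKM against 19.6 to 141 in the others. Cd14 was second highest, 141 FPKM, in normal sample 2, which was also second in Il10. The whole list of monocyte markers, 5 of 6 found and none at 0 throughout a group, summed to 5653 to 12670 FPKM at Nampt++ status. The sums were 5360 to 13700 at Nampt+ status and 4177 to 10498 in normal rats. Lyz2 made up most of every sum. The highest sum was that of rat 4 at Nampt+ status, where Lyz2 alone stood at 13492 FPKM. Csf1r and Cd68, like Cd14, were highest in the sample highest in Il10, at 88.5 and 122 FPKM. Lyz2 and Cx3cr1 were highest in other samples. The part of monocytes in the Il10 values was not tested.

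Il17a was near the limit of these libraries. It was 0.787, 0.474 and 0 FPKM in normal rats, 0, 0.664, 0.381 and 0.269 at Nampt++ status, and 0.560, 0.134, 0.0600 and 0.0876 at Nampt+ status. The samples at 0 were normal sample 3 and rat 1 at Nampt++ status, with 0 of 81464754 and 0 of 74940546 counts, which allow up to 0.0368 and 0.0400 CPM. In the other 9 samples Il17a had 6 to 67 counts, or 0.0763 to 0.937 CPM. In rats 2, 3 and 4 the Nampt+ value was 0.201-fold, 0.157-fold and 0.326-fold that at Nampt++ status, and in rat 1 it rose from 0 to 0.560 FPKM. The group means on the log2(FPKM + 1) scale, 0.26 at Nampt+, 0.39 at Nampt++ and 0.47 in normal samples, differed by less than the spread between samples, with two-sided exact permutation p of 0.429 to 0.743 in the 3 comparisons. Its neighbour Il17f was listed at 0 in 8 of 11 samples, and Il22, another Th17 cytokine, in 4 of 11.

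In the comparison of Nampt+ with Nampt++ samples of the same rats, a gene was called when the ratio of group mean FPKMs was over 2 or under 0.5 with an unadjusted p under 0.05. The edgeR, DESeq2 and limma fits given here treated these samples as unpaired. By edgeR's quasi-likelihood test 0 of the 8 genes tested were called, against 0.642% of 11219 genes tested. At an unadjusted p under 0.05 alone there were also 0 by edgeR, beside 2.28% of all genes. The counts of calls were 1 by DESeq2 (Il10) and 0 by limma, which called 0.93% and 0.811% of the genes they tested. None was without overlap between the groups, which held for 0.41% of all genes tested. The median log2 fold change of the 8 genes was 0.11, and that of all genes 0.00. An exact test that flips the sign of each rat's own difference gave p from 0.375 to 1 for the 9 genes, where the smallest p possible is 0.125. Ctla4 was higher at Nampt+ status in 3 of 4 rats, and Il10 and Il17a were lower in 3 of 4, whereas the other 6 genes went up in 2 rats and down in 2.

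The same genes were then compared between Nampt++ samples and those of normal rats. Again 0 of 8 were called by edgeR, with 0.686% of 11219 genes called, and 0 passed an unadjusted p of 0.05 by edgeR, DESeq2 or limma. That p alone was met by 1.57% of all genes in edgeR, while DESeq2 called 1.08% and limma 1.29%. None was without overlap, compared with 1.1% of all genes. The fitted change was above 0 for 5 of the 8 genes, with a median of 0.21 on the log2 scale beside 0.00 for all genes. Foxp3, Il2ra, Ctla4, Icos and Il10 were on the higher side and Tbx21, Gata3 and Ifng on the lower side, none past the test.

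Nampt+ samples were compared with the same 3 normal rats, so that these values are not independent of the former ones. Of the 8 genes 0 were called by edgeR, 0 had an unadjusted p under 0.05, and none was without overlap, where 0.497% and 0.444% of 11269 genes were called and without overlap. An unadjusted p under 0.05 alone was found for 0.87% of all genes. DESeq2 called 1 gene (Ifng) and limma 0, where they called 0.65% and 0.701% of all genes. The median log2 fold change of the 8 genes was -0.01, beside 0.00 for all genes. The smallest p that the two-sided permutation test can give here is 0.0286, and those of the 9 genes on the log2(FPKM + 1) scale lay between 0.429 and 0.886.

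**Figure D2:**
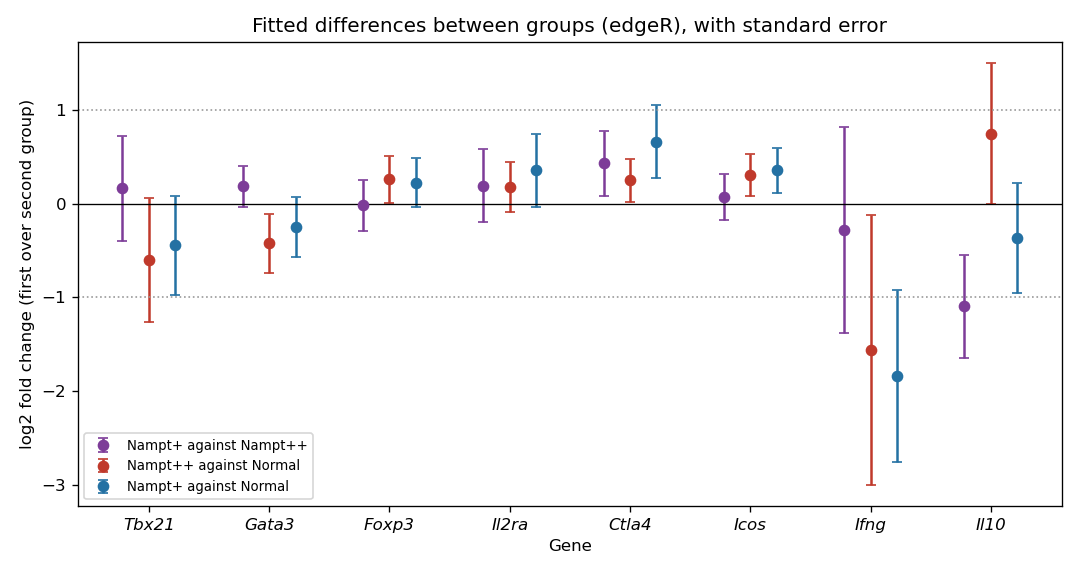
Fitted log2 fold changes (vertical axis) of the 8 genes with a mean of at least 1 FPKM in the 3 comparisons, by edgeR, with standard errors as bars. Dotted lines mark changes of 1 and -1 on the log2 scale. The differences farthest from 0 are those of Ifng from normal samples, -1.84 ± 0.91 at Nampt+ and -1.56 ± 1.44 at Nampt++ status.

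To set the members against the amount of T cell RNA, their FPKM was divided by the mean FPKM of Cd3d, Cd3e and Cd3g in the same sample. This was done for the 7 genes that were above 0 in every sample with a mean of at least 1 FPKM. Ctla4 amounted to 11.2% ± 2.03 (SD, n = 3) of the CD3 level in normal rats, 14.4% ± 3.99 (SD, n = 4) at Nampt++ status and 17.9% ± 6.88 (SD, n = 4) at Nampt+ status. Its values were 11.8%, 12.8% and 8.90% in normal samples and 19.9%, 11.98%, 13.1% and 26.8% at Nampt+ status, so that rat 2 no longer stood below the normal samples but the groups still overlapped. The difference between Nampt+ and normal samples had the smallest p of the 21 such comparisons, 0.171 in a two-sided exact permutation test.
Gata3 relative to CD3 was close to even at Nampt+ status, at 2.98% ± 0.26 (SD, n = 4), with 2.71% ± 0.54 at Nampt++ status and 3.31% ± 1.05 in normal rats. Foxp3 relative to CD3 was 4.62% ± 1.99, 5.79% ± 2.53 and 5.47% ± 1.78 in normal, Nampt++ and Nampt+ samples (SD). Tbx21 relative to CD3 ranged from 1.28% in rat 1 at Nampt++ status to 12.4% in normal sample 1.

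**Figure D3:**
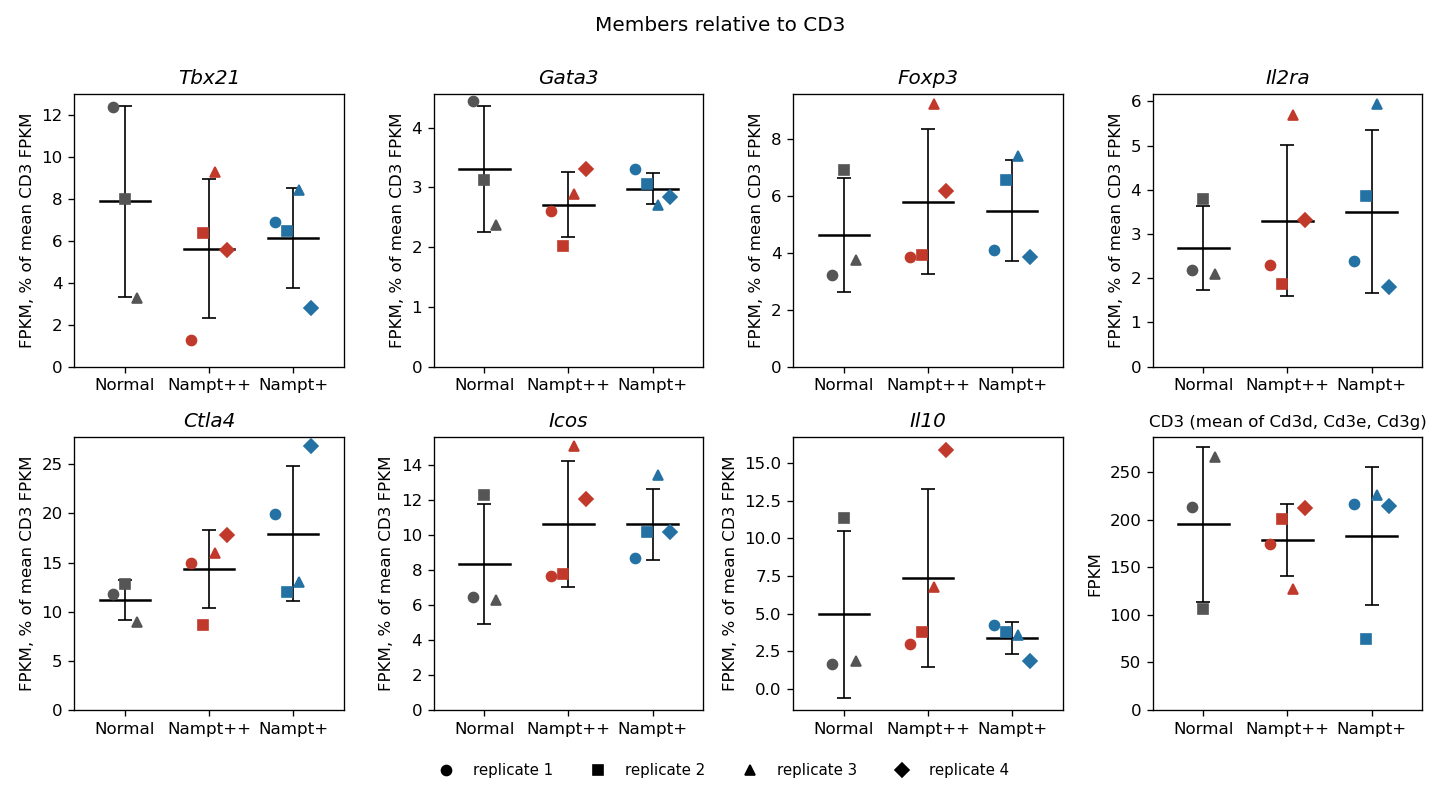
FPKM of 7 genes as a percentage of the mean FPKM of Cd3d, Cd3e and Cd3g in the same sample, and in the last panel that CD3 level itself in FPKM, by group. Symbols mark the replicate number, horizontal bars the mean and error bars the SD. Ctla4 means run from 11.2% in normal samples to 17.9% at Nampt+ status with overlapping samples, and the lowest CD3 level, 74.4 FPKM, is that of rat 2 at Nampt+ status.

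The lineage factors were set against each other as ratios of FPKM within a sample. Because NK cells also use T-bet, such ratios in bulk leukocytes need not reflect a balance among T cells. Foxp3 to Tbx21 was 0.260, 0.862 and 1.15 in normal samples, 3.00, 0.613, 0.995 and 1.10 at Nampt++ status, and 0.590, 1.01, 0.880 and 1.38 at Nampt+ status. The outer values belonged to normal sample 1, the sample with the most Tbx21, and to rat 1 at Nampt++ status, the one with the least. The sum of NK cell markers was also highest in the former, 560 FPKM, and lowest in the latter, 69.6 FPKM, although not every single marker followed the sum. The part of NK cells in these ratios was not tested. Gata3 to Tbx21 was 2.03 in that sample of rat 1 and 0.311 to 1.02 in the other 10. Foxp3 to Gata3 was 0.725 in normal sample 1 and 1.24 to 3.20 in the others. For the 3 ratios in 3 comparisons, two-sided exact permutation p ranged from 0.343 to 0.857.

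The members fell into different company when the genes most like them across the 11 samples were listed. Likeness was the Pearson correlation of log2(FPKM + 1) over the 11 samples among 11242 genes with a mean of at least 1 FPKM, given as a description. For Tbx21 the closest were Pdgfb (0.980), Nkg7 (0.979) and Gzmm (0.960), the latter pair genes of cytotoxic granules in NK and T cells. Without the 2 samples farthest from the median of Tbx21 these were 0.964, 0.966 and 0.942. Ifng was closest to Gzma, granzyme A, at 0.908, which fell to 0.653 without normal sample 1 and rat 1 at Nampt++ status. Smim24 (0.890) and Cdhr1 (0.853) followed.
The 7 NK cell markers, all of 7 found and none at 0 throughout a group, summed to 69.6 to 240 FPKM at Nampt++ status, 71.9 to 280 at Nampt+ status and 182 to 560 in normal rats. The sum was lowest in rat 1 at Nampt++ status and highest in normal sample 1, the samples with the lowest and highest Tbx21 and Ifng. Rat 1 at Nampt++ status also had the highest sum of 6 neutrophil markers, 39992 FPKM, where the lowest of its group was 2857 and the ranges were 3627 to 15252 at Nampt+ status and 2055 to 13795 in normal rats. Their part in the Tbx21 and Ifng values was not tested.

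Foxp3 was closest to Zc3hc1 (0.961), Sun2 (0.951) and Cd86 (0.951), which encodes a ligand of CD28 and CTLA4 on antigen-presenting cells. Il2ra was closest to AABR07064873 (0.967), the amino acid transporter gene Slc7a1 (0.956) and Foxp3. Gata3 was closest to AABR07060352 (0.963), AABR07060353 (0.959) and Alms1 (0.958). The genes closest to Ctla4 were Rcor1 (0.952), Crtc1 (0.945) and Bin2 (0.943), and those closest to Icos were Mink1 (0.960), Ibtk (0.952) and Rasal3 (0.948). Il10 was closest to the adenosine receptor gene Adora2a (0.931), Cd55 (0.917) and Dram1 (0.915). Without the 2 samples farthest from its median these fell to 0.813, 0.708 and 0.743. The correlation of Il10 with Cd14, looked at after its values were seen, was 0.827, and 0.721 without those samples.

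**Figure D4:**
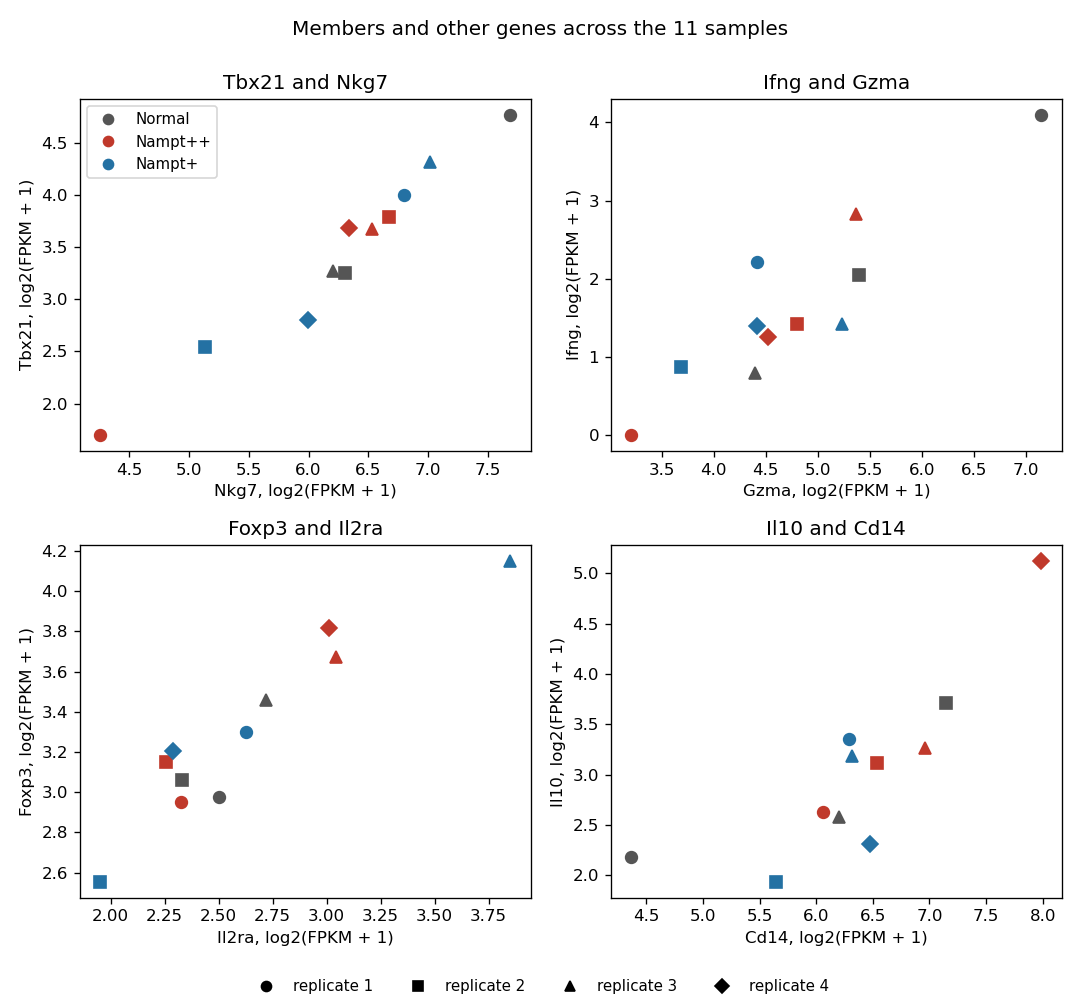
Log2(FPKM + 1) of 4 members (vertical axes) against that of another gene (horizontal axes) in the 11 samples, with colour for group and symbol for replicate number. Tbx21 and Nkg7 (Pearson correlation 0.979), Foxp3 and Il2ra (0.942), Ifng and Gzma (0.908) and Il10 and Cd14 (0.827) rise together, with samples of all groups intermingled.

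The samples at the ends of these distributions were few. Rat 2 at Nampt+ status was lowest in 6 of the 9 genes, namely Gata3, Foxp3, Il2ra, Ctla4, Icos and Il10. Rat 1 at Nampt++ status was lowest, or at 0, in the other 3, Tbx21, Ifng and Il17a. Normal sample 1 was highest in 4, namely Tbx21, Gata3, Ifng and Il17a, and rat 3 at Nampt+ status in Foxp3, Il2ra and Icos.

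A wider list of 70 genes of the same programmes was examined, of which 68 were found in the table and 14 had a mean below 1 FPKM. Of the genes tested by edgeR, 0 of 54 were called in Nampt+ against Nampt++ samples, 1 of 53 in Nampt++ against normal samples and 0 of 54 in Nampt+ against normal samples, beside 0.642%, 0.686% and 0.497% of all genes tested. An unadjusted p under 0.05 was found for 0 of 54, 2 of 53 and 0 of 54, beside 2.28%, 1.57% and 0.87% of all genes tested. The gene called was Nt5e, encoding CD73, an enzyme that makes adenosine outside the cell and is found on regulatory T cells among others. Its FPKM was 11.2, 3.00, 4.55 and 3.07 at Nampt++ status and 2.32, 1.73 and 2.68 in normal rats, so that all 4 were above all 3, a separation shared by 1.1% of all genes. The log2 fold change was 1.25 ± 0.46 (SE, n = 4 and 3), with an unadjusted p of 0.0278 and an adjusted p of 0.9999 by edgeR's quasi-likelihood test. Without rat 1 at Nampt++ status, the sample with the highest neutrophil markers and the highest Nt5e, the ratio of means dropped from 2.43 to 1.58 and the call was lost, with a log2 fold change of 0.69 (unadjusted p = 0.0341). The call was also lost without normal sample 1, 2 or 3, at ratios of 2.47, 2.18 and 2.69 and unadjusted p of 0.0640, 0.0654 and 0.0720. The part of neutrophils in it was not tested. The other gene with p under 0.05 was Tnfrsf4, encoding the costimulatory receptor OX40, at 1.51 times the normal mean (unadjusted p = 0.0458).

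By programme, the Th1 list held 12 genes found, all with a mean of at least 1 FPKM. It was led by the interferon gamma receptor chains Ifngr1 (mean 242 FPKM) and Ifngr2 (66.4 FPKM), which many leukocytes carry. Of 9 Th2 genes, 4 were below 1 FPKM, with Il5 listed at 0 in all 11 samples and Il4 in 10 of 11, both named after their values were seen. The receptor gene Il4r, at 212 FPKM, and Stat6, which transmits its signal, at 33.4 FPKM, led that list. Of 15 Th17 genes, 6 were below 1 FPKM. Il17ra, the receptor gene, stood at 89.4 FPKM and Batf, a factor of activated T and other cells, at 69.3 FPKM. On the FPKM scale, Ifngr1, Il4r and Il17ra stood above Ifng, Il4 and Il17a in every sample.

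The regulatory list held 17 genes, 2 of them below 1 FPKM, and was led by Tgfb1 at 120 FPKM and Ebi3, a subunit of interleukin 35 and interleukin 27, at 87.1 FPKM. Its median log2 fold change was 0.37 in Nampt++ against normal samples, 0.05 in Nampt+ against normal samples and -0.23 between the CIA groups, with medians of all genes tested at 0.00. In these comparisons 12, 9 and 4 of the 15 genes tested had a fitted change above 0. Rat 1 at Nampt++ status, with the highest neutrophil marker sum, was the highest sample for 6 genes of the list, and rat 4 at that status for 5. Without rat 1, the median in Nampt++ against normal samples was 0.15 and 9 of the 15 genes were above 0; the part of neutrophils was not tested. The other lists in that comparison had 9 of 9 Th17 genes above 0 (median 0.32), 3 of 4 Th2 genes (0.39), both genes of follicular helper cells and T cell growth (0.42), 4 of 12 Th1 genes (-0.17) and 4 of 11 costimulation genes (-0.10). Among 12 costimulation genes, 1 of them below 1 FPKM, Cd27 stood at 73.2 FPKM and Cd274, encoding PD-L1, at 61.4 FPKM. Their fitted changes in Nampt++ against normal samples were -0.10 ± 0.38 and 0.63 ± 0.80 on the log2 scale (SE). Of the remaining genes, of follicular helper cells and T cell growth, Bcl6 stood at 23.9 FPKM and Cxcr5 at 12.3 FPKM, and the growth factor gene Il2 was listed at 0 in 9 of 11 samples.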

How the data were processed

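Peripheral leukocyte RNA of 11 rat samples was sequenced as paired-end poly(A) libraries. Per the labels and the study's methods, the authors trimmed reads with cutadapt 1.9, aligned them with HISAT2 2.0.4 and assembled transcripts with StringTie 1.3.4; build and counting program are not given in the sources used here. The deposited table holds raw counts and FPKM per gene, which the authors scaled by gene length and library total; 0.0001 FPKM was read as 0. The 9 genes and all lists were chosen with earlier results of these data known. Counts of the groups compared were fitted with edgeR 4.0.16 (R 4.3.3; quasi-likelihood, TMM) over genes with a mean of at least 1 FPKM, and p values were adjusted over all of them by the Benjamini-Hochberg method. DESeq2 1.42.0 and limma 3.58.1, on log2(FPKM + 1), served as alternatives, beside other scalings, filters and pseudocounts, the replicate block and leaving out each sample in turn. Single values were compared by two-sided exact permutation. The sample labels number the Nampt++ and Nampt+ samples alike but do not name a rat. Since the study drew both from the same 4 rats, samples of one number were read as one rat. The correlations of their deviations from group means were -0.27, -0.24, 0.23 and 0.09 for rats 1 to 4. Intervals for counts of 0 take 3 counts as the limit and cover counting error only. The fit was tested on simulated counts. Named beside the 9 genes are listed genes that were called, the 2 of each list with the highest mean, the same-family neighbours Cd28, Il17f and Il22, the 3 most similar genes, and markers.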

Additional observations from a re-analysis of the deposited data

Results flagged for a closer look

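In 4 cases among 38 sets of 4 samples, a single sample lay apart from its group by Dixon's criterion at the 95% level, a criterion that chance meets in about 1 of 20 sets. Tbx21 in rat 1 at Nampt++ status, at 2.24 FPKM, was below the other 3 samples (11.8 to 12.8 FPKM) with a gap of 0.903 of the range. The ratio of Gata3 to Tbx21 in the same sample, 2.03, stood above the others with a gap of 0.836. Il10 in rat 4 at Nampt++ status, at 33.8 FPKM, stood apart with a gap of 0.881. Il17a in rat 1 at Nampt+ status, at 0.560 FPKM against 0.0600 to 0.134 in rats 2 to 4, did so with a gap of 0.853.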

How the results depend on the processing

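The count of the 9 genes called, 0 in each comparison, became 1 by DESeq2 in Nampt+ against Nampt++ (Il10) and in Nampt+ against normal samples (Ifng). Leaving out 1 sample at a time gave 0 to 1 in each comparison: Il10 without rat 1 at Nampt++ status, Il10 in Nampt++ against normal samples without normal sample 2, and in Nampt+ against normal samples Ctla4 without rat 2 at Nampt+ status or Ifng without normal sample 3. The counts stayed at 0 with DESeq2 size factors, limma, all groups in one fit, haemoglobin genes left out, no filter and the replicate block. Of the wider list, the count in Nampt+ against Nampt++ samples, 0, became 1 by limma (Batf) and 1 with no filter (Il21), and 0 to 2 with single samples left out. In Nampt++ against normal samples it went from 1 to 2 with no filter, and from 0 to 8 with single samples left out, the 8 without normal sample 2. In Nampt+ against normal samples it went from 0 to 2 by DESeq2, 1 with all groups in one fit (Ccr4), 1 with the replicate block (Ccr4), which pairs by number samples of different animals here, and 0 to 2 with single samples left out. Over all genes tested, the calls in these 3 comparisons, 72, 77 and 56, became 295, 306 and 261 with no filter, and leaving out normal sample 2 raised the 77 to 462. Of 846 recomputed differences of member levels, levels relative to CD3 and lineage factor ratios, 83 changed sign. Of these, 0 were past the threshold under either setting, and 3 moved by more than the SD between samples. A further 6 passed the threshold only in the alternative. With 1 sample left out of a comparison with normal rats, the permutation test cannot give a p under 0.05. The permutation values of those settings could therefore not pass. Il17a could be fitted only with no filter. Depth was lowest for Il17a, with 6 to 67 counts in the 9 samples above 0.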
